A study of Homo sapiens with 8 samples.

Results

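The genes described here encode the numbered lysine methyltransferases (KMT), lysine demethylases (KDM) and SET domain proteins (SETD), together with SETDB1, SETDB2, NSD1, NSD2 and NSD3. They were taken by a rule on symbols that leaves out KDM5D and was set with earlier results of these data known. They number 41 of the 58302 genes in the count table, 22 methyltransferases or SET proteins and 19 demethylases. Of these, 39 had enough counts to be tested among 15712 genes. Transcripts were measured by RNA sequencing in HCT116 p53+/+ cells, an established human colon cancer line with wild-type p53. The treated group received 1 µM MANIO, a compound known here only by its code name, and the control group received its solvent DMSO, each for 24 hours and in 4 libraries that the labels call biological replicates. All cells belonged to this 1 line at this 1 dose and time. The design names transcription downstream of p53 as what the comparison addressed. HCT116 is an epithelial line, and 7 of 10 colon epithelium markers passed the filter on low counts, among them EPCAM, CDH1 and KRT8, while CDX1, VIL1 and LGALS4 did not. The summed level of the 10 markers was 4137 to 4638 CPM (counts per 1000000 counts) in the MANIO libraries and 3351 to 3623 CPM in the DMSO libraries.

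Histone methyltransferases move methyl groups from S-adenosylmethionine onto lysines of histone tails, mostly through a SET domain. Demethylases remove them, either with a flavin cofactor (the KDM1 enzymes) or with iron, oxygen and 2-oxoglutarate in a JmjC domain. Methylation of lysine K4 or K36 of histone H3 accompanies active promoters and gene bodies, while methylation of H3K9, H3K27 and H4K20 is known from repressed or compacted chromatin.

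Total counts ranged over 27945196 to 32509020 per library, more than the number of raw reads that the labels state, for a reason not given in the sources used here. Each tested member had 74 to 8564 counts in a library. Libraries of a group differed along GC content: the deviation of the 39 members from their group mean followed GC content with a rho of -0.84 in MANIO 4 and -0.76 in DMSO 1, and between 0.04 and 0.68 in the other 6. In the 7 members with a GC content over 58% the median deviation in log2 CPM was -0.17 in MANIO 4 and -0.15 in DMSO 1. Mitochondrially encoded genes took 6.70% to 7.62% of the counts in MANIO, against 7.48% in DMSO 1 and 4.82% to 5.21% in the other DMSO libraries. Of 10 markers of other cell types, 2 passed the filter, COL1A1 (42.2 CPM in MANIO and 22.9 CPM in DMSO) and VWF (0.302 CPM in MANIO and 0.778 CPM in DMSO). The list summed to 39.3 to 47.1 CPM in MANIO and 22.1 to 27.1 CPM in DMSO, and no marker was at 0 in every library. The part of these library features and markers in the results was not tested. In bulk RNA of this kind, fewer cells of a type and less RNA per cell cannot be told apart, and all levels are relative to the library total.

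More of these genes were higher than lower in MANIO, by small amounts. By edgeR's quasi-likelihood test with an adjusted p under 0.05, 17 of the 39 tested members rose (43.6%), 7 fell (17.9%) and 15 did not pass, where the shares over all tested genes were 27.8% higher and 26.8% lower. The median log2 fold change was 0.06 over the members and 0.00 over all genes. The median SD of log2 CPM within a group was 0.0686 in MANIO and 0.0756 in DMSO over the members, and 0.105 and 0.108 over all genes. The groups did not overlap for 15 members with MANIO above and for 6 with MANIO below, where the shares over all genes were 24.7% and 23.7% (48.3% in either direction). Of the 39 members, only 3 were called with a difference of at least 1.5-fold, KDM4B, KDM6B and KDM5B, all upwards. Of all 15712 tested genes, 2824 were called at that size in either direction. Against a 1.2-fold limit in edgeR's glmTreat, the calls higher were 5 (KDM4A, KDM4B, KDM5B, KDM6B and KDM7A) and the call lower was 1 (NSD2), with 14.7% and 11.6% of all genes called. Without MANIO 4 and DMSO 1, KDM4B had a log2 fold change of 0.91, KDM6B of 0.81, KDM5B of 0.78, KDM7A of 0.41 and NSD2 of -0.47, and with a GC trend removed from every library KDM4B had 0.77, KDM6B 0.69, KDM5B 0.80, KDM7A 0.48 and NSD2 -0.41. The calls were 17 higher and 7 lower in the first of these fits and 18 higher and 7 lower in the second. The GC trend was fitted to each library's deviation from the mean of all libraries of both groups. Its removal therefore also takes out any group difference that follows GC content.

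**Figure D1:**
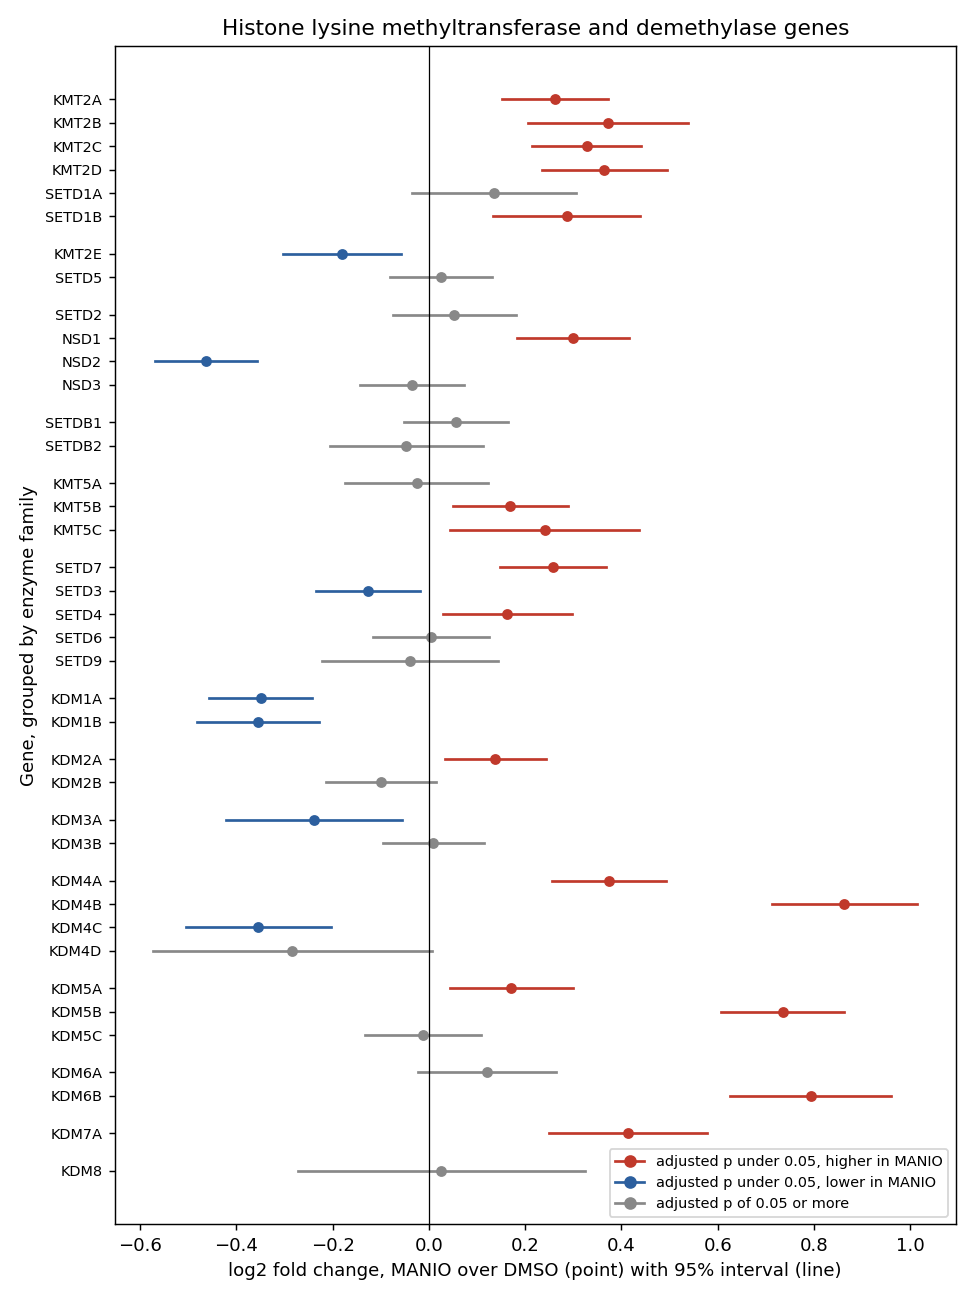
Log2 fold change, MANIO over DMSO, of the 39 tested genes (points) with 95% intervals (lines), grouped by enzyme family; red marks genes called higher, blue genes called lower and grey genes not called. KDM4B, KDM6B and KDM5B stand apart on the right between 0.73 and 0.86, and NSD2 lies farthest to the left at -0.46.

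The sequences before the start sites of 3 members are shown because these genes gave the 2 largest rises, KDM4B and KDM6B, and the largest fall, NSD2. Each is the 250 bases before a transcript start in RefSeq on GRCh38.p14, all on the plus strand: KDM4B at chr19:4968863-4969112, KDM6B at chr17:7833967-7834216 (the upstream of 2 starts) and NSD2 at chr4:1871143-1871392. Capitals mark CCAAT boxes, the E-box letters CACGTG and, as the cell cycle homology region (CHR), the letters TTTGAA on either strand.
KDM4B: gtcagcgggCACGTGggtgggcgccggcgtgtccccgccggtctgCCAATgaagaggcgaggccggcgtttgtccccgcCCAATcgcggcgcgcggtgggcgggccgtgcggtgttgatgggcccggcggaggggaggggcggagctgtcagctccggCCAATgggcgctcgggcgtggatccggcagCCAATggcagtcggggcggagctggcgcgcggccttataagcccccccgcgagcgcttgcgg
KDM6B: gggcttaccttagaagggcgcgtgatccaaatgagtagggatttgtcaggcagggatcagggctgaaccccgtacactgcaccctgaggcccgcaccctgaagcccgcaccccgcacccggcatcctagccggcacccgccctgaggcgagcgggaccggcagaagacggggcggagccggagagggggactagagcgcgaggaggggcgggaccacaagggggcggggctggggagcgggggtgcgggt
NSD2: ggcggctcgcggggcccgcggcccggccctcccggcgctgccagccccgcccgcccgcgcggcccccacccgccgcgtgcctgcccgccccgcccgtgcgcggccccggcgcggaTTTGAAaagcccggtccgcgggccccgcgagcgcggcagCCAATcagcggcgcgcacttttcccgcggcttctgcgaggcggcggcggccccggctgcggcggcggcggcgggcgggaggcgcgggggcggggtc
All 3 windows are rich in G and C, at 75.6% for KDM4B, 70.4% for KDM6B and 86.0% for NSD2. At the other KDM6B start the non-exonic stretch of 237 bases, chr17:7839667-7839903, is not printed. That stretch has 49.4% G and C and none of the motifs searched. The KDM4B window holds 4 CCAAT runs and 1 CACGTG, the NSD2 window holds 1 TTTGAA and 1 CCAAT, and the KDM6B window holds none of the letters searched. The table holds 35116 such windows of 250 bases, exonic bases included, and 54 of them belong to 37 of the 39 tested members, SETD1B and NSD3 having none. CCAAT stood in 19 of the 54 member windows (35.2%) and in 11240 of all 35116. Counted by gene, it was in a window of 5 of 16 members that rose and 3 of 7 that fell. CACGTG stood in 8 of the 54 (14.8%) and in 6.34% of all windows, and by gene in 3 of 16 members that rose and 1 of 7 that fell. TTTGAA was found in 1 member window, that of NSD2 (1.85%; 13.3% of all windows), and GGCGGGAA, an E2F motif, in 1, of KDM1B (1.85%; 2.72% of all windows). The p53 motif, a single unit of the paired response element, matched 0 of the 54 and 5.57% of all windows. All motifs were read on both strands, the marked runs do not overlap each other, and a match describes only the letters in these windows.

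Among the writers of H3K4 methylation, the 6 catalytic subunits of the COMPASS complexes were all higher on average in MANIO. Of these, 5 passed the test (83.3%, against 27.8% of all genes called higher). KMT2A (MLL1) had 171 ± 7.04 CPM in MANIO and 143 ± 5.74 CPM in DMSO (SD, n = 4 each), a log2 fold change of 0.26. KMT2B had 72.5 ± 5.93 CPM in MANIO and 55.9 ± 5.92 CPM in DMSO (0.37). These are the pair of enzymes that share the subunit menin, and for both of them every MANIO library lay above every DMSO library. KMT2C and KMT2D, which monomethylate H3K4 at enhancers, behaved likewise. KMT2C had 61.7 ± 0.886 CPM in MANIO and 49.2 ± 2.18 CPM in DMSO (0.33), and KMT2D had 206 ± 17.2 CPM in MANIO and 160 ± 5.21 CPM in DMSO (0.36). SETD1B, a subunit of the complexes that place most trimethylated H3K4, had 49.7 ± 4.27 CPM in MANIO and 40.8 ± 2.88 CPM in DMSO (0.29). Its close relative SETD1A had 56.1 ± 5.06 CPM in MANIO and 51.0 ± 5.30 CPM in DMSO and did not pass (0.14, adjusted p = 0.166 in edgeR's quasi-likelihood test), while leaving out MANIO replicate 4 gave 0.19 (edgeR adjusted p = 0.0447), leaving out DMSO replicate 1 gave 0.067 (edgeR adjusted p = 0.445) and removing the GC trend gave 0.033 (edgeR adjusted p = 0.540). The adjusted p of the same test was 5.7e-04 for KMT2A, 8.8e-04 for KMT2B, 9.7e-05 for KMT2C, 1.4e-04 for KMT2D and 0.00331 for SETD1B. With the GC trend removed, the log2 fold change was smaller for KMT2B (0.26), KMT2D (0.29) and SETD1B (0.19). It was larger for KMT2A (0.30) and KMT2C (0.39). None of these enzymes was called at the 1.2-fold limit. In KMT2A 18.9% of the exonic bases lie in exons of other genes, nearly all of them in AP001267.5, a gene absent from the count table. How reads there were assigned is not known, so the KMT2A level is uncertain to that extent.

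The listed partner subunits of the same complexes were mostly lower in MANIO. KDM6A, a subunit of the KMT2C and KMT2D complexes, is a member and was not in this list (0.12, edgeR adjusted p = 0.144). Of 12 partner genes, 7 fell by edgeR's quasi-likelihood test at an adjusted p under 0.05 (58.3%, against 26.8% of all genes) and 5 did not pass. Their median difference was -0.19 on the log2 scale, and that of the 6 enzymes was 0.31. The 2 sets also differ in sequence features. Median GC content was 60.2% for the enzymes and 48.4% for the partners, and median exonic length 15196.5 and 5065 bases. The part of these features in the difference was not tested. DPY30, a core subunit, had 36.7 ± 2.14 CPM in MANIO and 47.8 ± 1.99 CPM in DMSO (-0.38, edgeR adjusted p = 7.4e-05), but 50.5% of its exonic bases overlap another gene. ASH2L, another core subunit, had 57.98 ± 0.692 CPM in MANIO and 71.1 ± 3.04 CPM in DMSO (-0.29, edgeR adjusted p = 2.1e-04). PSIP1, the chromatin tether of the menin complexes also known as LEDGF, had 156 ± 16.6 CPM in MANIO and 217 ± 17.3 CPM in DMSO (-0.47, edgeR adjusted p = 9.8e-05). PAGR1, named after its value was seen, had the lowest estimate (-0.92), at 1.77 CPM in MANIO and 3.35 CPM in DMSO, with 66.0% of its exonic bases in other genes. For DPY30, ASH2L and PSIP1 all MANIO libraries lay below all DMSO libraries.

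**Figure D2:**
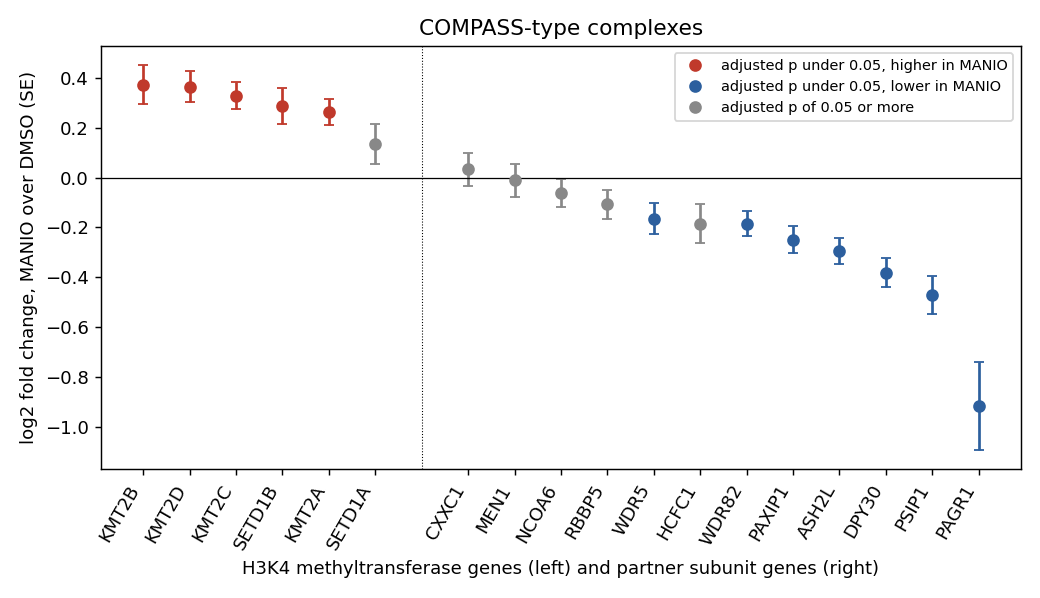
Log2 fold change, MANIO over DMSO, with SE (bars) for the 6 COMPASS catalytic subunits on the left and the 12 partner subunits on the right, coloured red if called higher, blue if called lower and grey if not called. The points of the enzymes lie between 0.14 and 0.37, while every partner point other than that of CXXC1, at 0.03, lies below 0. KDM6A, a member that is also a subunit of the KMT2C and KMT2D complexes, is not shown.

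KMT2E and SETD5 carry SET domains for which no firm histone methyltransferase activity is established. KMT2E, whose PHD finger binds trimethylated H3K4, had 59.6 ± 2.70 CPM in MANIO and 67.6 ± 3.78 CPM in DMSO (-0.18, adjusted p = 0.0154 in edgeR's quasi-likelihood test). That call was lost without MANIO replicate 2. SETD5 had 172 ± 6.86 CPM in MANIO and 169 ± 4.77 CPM in DMSO (0.02, edgeR adjusted p = 0.700).

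The writers of H3K36 methylation went in different directions. NSD2, which dimethylates H3K36 and is known for its translocation to the immunoglobulin locus in myeloma, showed the largest fall of all members. NSD2 stood at 202.8, 195.7, 195.2 and 190.3 CPM in the MANIO libraries, against 259, 285, 272.5 and 264 CPM in the DMSO libraries. All 4 MANIO libraries lay below all 4 DMSO libraries, and the log2 fold change was -0.46 (SE 0.0499, edgeR adjusted p = 2.0e-06). The gene (ENSG00000109685) lies on chromosome 4 at 1871424 to 1982207 on GRCh38. NSD1, its paralog, had 176 ± 8.92 CPM in MANIO and 143 ± 6.54 CPM in DMSO, with no overlap, and rose by 0.30 on the log2 scale (edgeR adjusted p = 2.8e-04). SETD2, the main enzyme of H3K36 trimethylation, had 111 ± 3.64 CPM in MANIO and 107 ± 8.63 CPM in DMSO (0.05, edgeR adjusted p = 0.479), and NSD3, amplified in some carcinomas, had 90.6 ± 3.92 CPM in MANIO and 92.9 ± 1.62 CPM in DMSO (-0.04, edgeR adjusted p = 0.576). With the GC trend removed SETD2 was called higher (0.13, edgeR adjusted p = 0.0167). Per kilobase of merged exon, NSD1 made up 41.7 ± 0.990% of the summed level of the 3 NSD genes in MANIO and 31.8 ± 1.04% in DMSO. NSD2 made up 36.4 ± 0.878% in MANIO and 47.1 ± 1.00% in DMSO, so the order of these levels was NSD1 first in MANIO and NSD2 first in DMSO. When levels were divided by the longest transcript, NSD2 came first in both groups, at 50.9% in MANIO and 61.5% in DMSO.

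The H3K9 methyltransferases SETDB1, which works with the KAP1 repressor, and SETDB2 did not pass the test. SETDB1 had 67.3 ± 2.35 CPM in MANIO and 64.8 ± 1.25 CPM in DMSO (0.06, edgeR adjusted p = 0.375), with 13.4% of its exonic bases in exons of CERS2 on the opposite strand. SETDB2 had 13.6 ± 0.695 CPM in MANIO and 14.0 ± 1.04 CPM in DMSO (-0.05, edgeR adjusted p = 0.621).

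Of the 3 H4K20 methyltransferases, KMT5B rose and KMT5C passed the test at an adjusted p close to the threshold. KMT5A, which places the single methyl group, had 53.2 ± 2.73 CPM in MANIO and 54.1 ± 5.26 CPM in DMSO (-0.03, edgeR adjusted p = 0.782). KMT5B, which adds further methyl groups, had 51.0 ± 2.23 CPM in MANIO and 45.4 ± 1.73 CPM in DMSO (0.17, edgeR adjusted p = 0.0183), a call lost without DMSO replicate 2 or 4. KMT5C, of the same activity, had 15.9 ± 2.03 CPM in MANIO and 13.4 ± 1.04 CPM in DMSO, with overlapping groups (0.24, edgeR adjusted p = 0.0382). Its call was lost in several settings, among them DESeq2 and a fit with the GC trend removed (0.11, edgeR adjusted p = 0.179).

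The remaining SET proteins are known mainly for substrates other than histones. SETD7, which can methylate p53 and monomethylate H3K4, had 223 ± 10.9 CPM in MANIO and 187 ± 5.61 CPM in DMSO, without overlap (0.26, edgeR adjusted p = 6.2e-04). SETD3, the actin histidine methyltransferase, had 63.8 ± 1.94 CPM in MANIO and 69.6 ± 1.54 CPM in DMSO (-0.13, edgeR adjusted p = 0.0445). SETD4 had 23.0 ± 1.16 CPM in MANIO and 20.5 ± 0.807 CPM in DMSO (0.16, edgeR adjusted p = 0.0383). For SETD3 and SETD4 the groups did not overlap either, but each call was lost in several settings that leave out 1 library. SETD6, which methylates the NF-kappaB subunit RelA, was the member closest to no change among those with a positive estimate. SETD6 stood at 32.5, 33.4, 34.0 and 36.3 CPM in the MANIO libraries, against 33.8, 33.2, 34.6 and 34.3 CPM in the DMSO libraries. Both the lowest and the highest of these 8 values were in MANIO, and the log2 fold change was 0.0035 (95% interval -0.12 to 0.12, edgeR adjusted p = 0.963). In SETD6 21.4% of the exonic bases lie in exons of the more abundant CNOT1 on the opposite strand (353 CPM in MANIO and 376 CPM in DMSO), and a processed pseudogene, SETD6P1, is annotated. SETD9 had 7.97 ± 0.236 CPM in MANIO and 8.20 ± 0.752 CPM in DMSO (-0.04, edgeR adjusted p = 0.728).

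**Figure D3:**
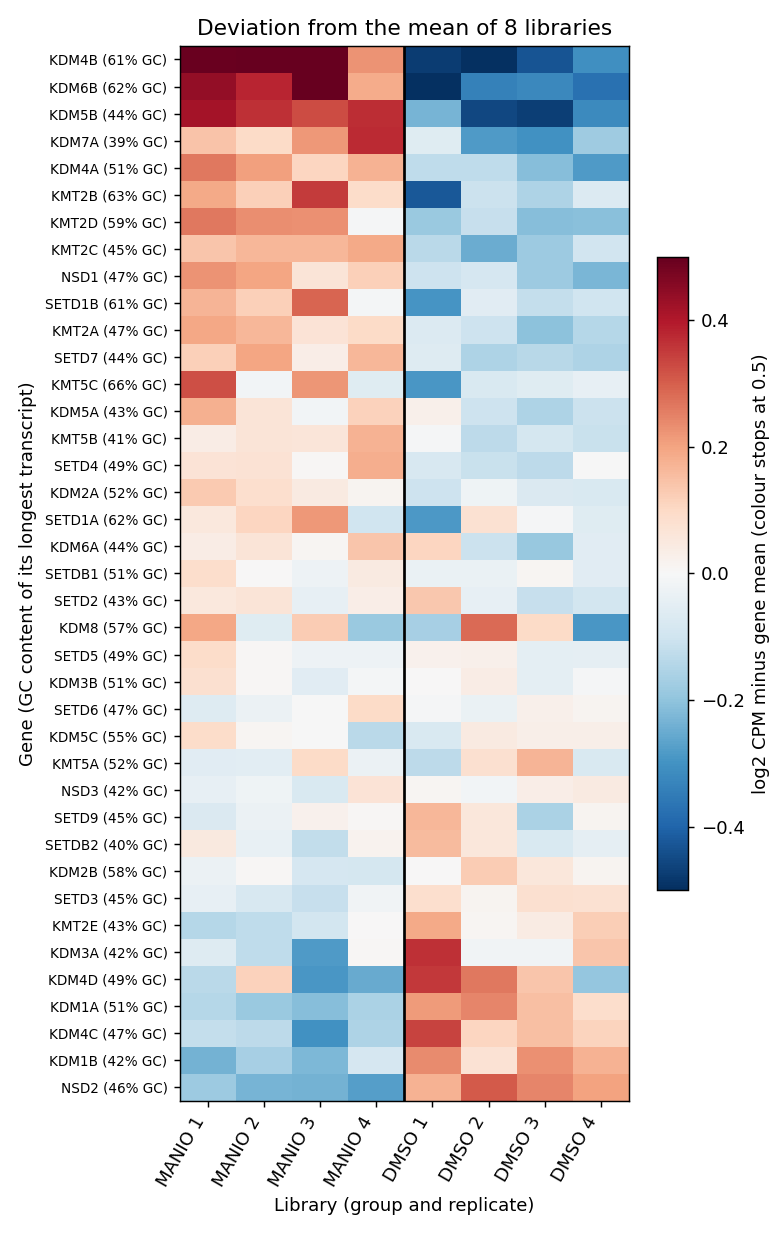
Log2 CPM of the 39 tested members in each library minus the gene's mean over all 8 libraries, with colours that stop at 0.5. Genes are ordered by log2 fold change, with MANIO libraries on the left and the GC content of the longest transcript beside each name. KDM4B, KDM6B and KDM5B lie above that mean in all 4 MANIO libraries, and NSD2, KDM1A and KDM1B below it in all 4.

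Both flavin-dependent demethylases fell. KDM1A (LSD1) removes mono- and dimethyl H3K4 within the CoREST corepressor and was the member with the highest level per kilobase of merged exon, 36.5 CPM per kilobase in MANIO and 46.5 in DMSO. KDM1A stood at 202.8, 197, 193 and 200.3 CPM in the MANIO libraries, against 259, 265, 248 and 238 CPM in the DMSO libraries. No MANIO library reached the lowest DMSO library. The log2 fold change was -0.35 (SE 0.0504, edgeR adjusted p = 3.5e-05). KDM1B, its paralog that acts in gene bodies and in oocytes, had 38.1 ± 1.86 CPM in MANIO and 48.7 ± 2.49 CPM in DMSO, also without overlap (-0.36, edgeR adjusted p = 1.4e-04). Of 12 corepressor partners of KDM1A, 5 rose (41.7%), namely GSE1, ZMYM2, RCOR3, PHF21A and SNAI1. Another 5 fell (41.7%), among them HDAC1, HDAC2 and ZMYM3. The CoREST genes RCOR1 and RCOR2 did not pass, and the median of the list was -0.01. Over all genes 27.8% rose and 26.8% fell. GSE1, a subunit found in complexes of KDM1A with deacetylases, had 183 ± 6.30 CPM in MANIO and 134 ± 2.14 CPM in DMSO (0.45, edgeR adjusted p = 1.7e-06). HDAC2, a histone deacetylase, had 168 ± 9.46 CPM in MANIO and 207 ± 9.99 CPM in DMSO (-0.30, edgeR adjusted p = 3.2e-04). ZMYM2, a zinc finger subunit, had 65.8 ± 5.53 CPM in MANIO and 50.8 ± 4.03 CPM in DMSO (0.37, edgeR adjusted p = 4.3e-04).

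Of the 15 tested JmjC members, 7 rose (46.7%, against 27.8% of all genes), 2 fell (13.3%, against 26.8%) and 6 did not pass. KDM4B, KDM6B and KDM5B, each of another family, all belong to this class. KDM4B removes methyl groups from H3K9 and H3K36 and is known as a target of the hypoxia factor HIF-1 and of p53. KDM4B stood at 77.8, 78.1, 78.6 and 64.6 CPM in the MANIO libraries, against 39.8, 38.9, 41.0 and 44.7 CPM in the DMSO libraries. Every MANIO library lay above every DMSO library, with MANIO 4 below the other 3 of its group. The level in MANIO was 1.82-fold that in DMSO, a log2 fold change of 0.86 (SE 0.0710, edgeR adjusted p = 1.2e-07). KDM4B (ENSG00000127663) lies on chromosome 19 at 4969113 to 5153595 on GRCh38, and none of its exonic bases overlap another gene.

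The paralogs of KDM4B differed in direction. KDM4A had 111 ± 5.03 CPM in MANIO and 85.7 ± 4.48 CPM in DMSO, without overlap (0.38, edgeR adjusted p = 4.4e-05). Its count is uncertain, since 48.5% of its exonic bases lie in other genes. AL451062.3 on the same strand, a gene absent from the count table, covers 40.2%. How reads there were assigned is not known. KDM4C, which spans 455 kb, had 18.9 ± 1.10 CPM in MANIO and 24.1 ± 1.87 CPM in DMSO and fell without overlap (-0.35, edgeR adjusted p = 6.1e-04). KDM4D, a gene with the testis as its known main site, had 3.11 ± 0.410 CPM in MANIO and 3.79 ± 0.593 CPM in DMSO (-0.28, edgeR adjusted p = 0.0899). KDM4E had 1 count in all, in MANIO replicate 3, and KDM4F had 0 in all 8 libraries, where 3 counts correspond to 0.0923 to 0.107 CPM. Per kilobase of merged exon, KDM4B made up 17.3 ± 1.44% of the KDM4 family in MANIO and 12.2 ± 1.29% in DMSO. KDM4C made up 6.20 ± 0.245% in MANIO and 10.2 ± 0.572% in DMSO. KDM4A stood at 73.0 ± 1.32% in MANIO and 72.1 ± 0.973% in DMSO. When the longest transcript was used as the length, the KDM4A difference was negative, at -0.62 points. By that length KDM4B made up 30.4% in MANIO and 22.0% in DMSO.

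KDM6B (JMJD3) removes methyl groups from H3K27, the mark of Polycomb repression, and is known as an inducible gene in inflammation and differentiation. KDM6B stood at 56.7, 54.6, 62.2 and 47.7 CPM in the MANIO libraries, against 28.7, 33.1, 33.5 and 32.4 CPM in the DMSO libraries. The groups were apart, with MANIO 4 again the lowest of its group and DMSO 1 the lowest of the other. The level in MANIO was 1.73-fold that in DMSO, a log2 fold change of 0.79 (SE 0.0786, edgeR adjusted p = 8.1e-07). KDM6B (ENSG00000132510) lies on chromosome 17 at 7839904 to 7854796 on GRCh38. Its X-linked paralog KDM6A (UTX), a subunit of the KMT2C and KMT2D complexes, had 35.97 ± 1.39 CPM in MANIO and 33.1 ± 2.94 CPM in DMSO and did not pass (0.12, edgeR adjusted p = 0.144), but did without DMSO replicate 1 (0.18, edgeR adjusted p = 0.0258). Per kilobase of merged exon, KDM6B made up 60.1 ± 3.58% of the pair in MANIO and 48.7 ± 3.91% in DMSO.

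KDM5B (JARID1B) removes di- and trimethyl H3K4 and was first described as a gene of breast cancer and testis. KDM5B stood at 90.8, 87.7, 85.2 and 88.0 CPM in the MANIO libraries, against 57.9, 49.7, 49.2 and 54.7 CPM in the DMSO libraries. The MANIO values lay close together and all above the DMSO values. The level in MANIO was 1.66-fold that in DMSO, a log2 fold change of 0.73 (SE 0.0603, edgeR adjusted p = 1.2e-07). KDM5B (ENSG00000117139) lies on chromosome 1 at 202724495 to 202809470 on GRCh38. KDM5A, which binds the retinoblastoma protein, had 58.9 ± 3.28 CPM in MANIO and 52.3 ± 2.84 CPM in DMSO, with overlapping groups (0.17, edgeR adjusted p = 0.0246), and its call was lost when any of 4 libraries was left out. KDM5C, an X-linked gene of intellectual disability, was the member closest to no change among those with a negative estimate. KDM5C stood at 130, 123, 122 and 111 CPM in the MANIO libraries, against 116, 126, 125 and 125 CPM in the DMSO libraries. The lowest and the highest of these values were both in MANIO, around the DMSO range (log2 fold change -0.01, 95% interval -0.13 to 0.11, edgeR adjusted p = 0.861). The summed level of KDM5A, KDM5B and KDM5C was taken per kilobase of merged exon. KDM5B made up 15.3 ± 0.540% of it in MANIO and 9.99 ± 0.835% in DMSO, and KDM5C 62.8 ± 1.61% in MANIO and 68.8 ± 2.07% in DMSO. With the longest transcript as the length, KDM5B made up 25.1% in MANIO and 17.0% in DMSO.

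**Figure D4:**
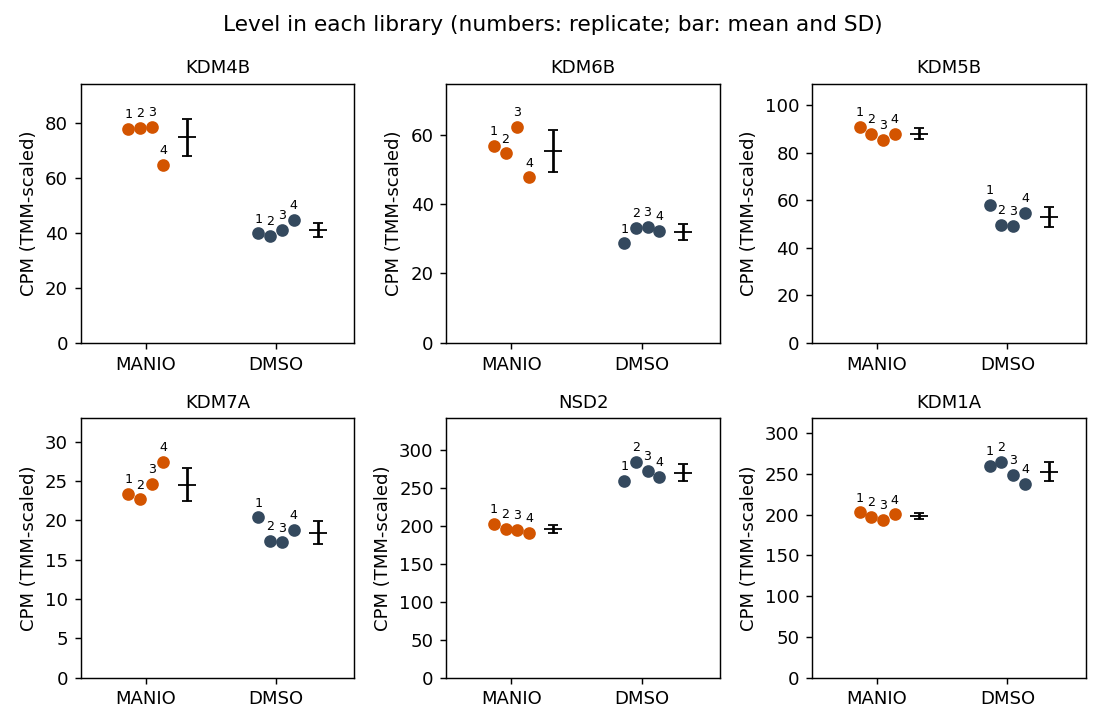
TMM-scaled CPM per library (points) with the mean and SD of each group (bars) for 6 members, MANIO left of DMSO. In KDM4B, KDM6B, KDM5B and KDM7A all MANIO points lie above all DMSO points, and in NSD2 and KDM1A below them.

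KDM7A, which removes methyl groups from H3K9 and H3K27, was the remaining member past 0.4 on the log2 scale. KDM7A stood at 23.4, 22.7, 24.7 and 27.5 CPM in the MANIO libraries, against 20.4, 17.4, 17.2 and 18.8 CPM in the DMSO libraries. The groups did not overlap. The log2 fold change was 0.41 (SE 0.0767, edgeR adjusted p = 3.3e-04), and the gene (ENSG00000006459) lies on chromosome 7 at 140084746 to 140177035 on GRCh38.

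The H3K36 demethylase genes KDM2A and KDM2B, whose proteins bind unmethylated CpG islands, differed by small amounts. KDM2A had 117 ± 4.04 CPM in MANIO and 106 ± 2.54 CPM in DMSO (0.14, edgeR adjusted p = 0.0270), a call lost when any of 5 libraries was left out, and KDM2B had 54.4 ± 1.73 CPM in MANIO and 58.3 ± 2.33 CPM in DMSO (-0.10, edgeR adjusted p = 0.129). KDM2B was called lower with the GC trend removed (-0.15, edgeR adjusted p = 0.00556). The H3K9 demethylase gene KDM3A, a known hypoxia target, had 73.9 ± 6.19 CPM in MANIO and 87.2 ± 11.4 CPM in DMSO (-0.24, edgeR adjusted p = 0.0284). DMSO replicate 1 alone reached 103 CPM, and without it the log2 fold change was -0.15 (edgeR adjusted p = 0.0790). KDM3B had 198 ± 7.88 CPM in MANIO and 197 ± 4.68 CPM in DMSO (0.01, edgeR adjusted p = 0.887). KDM8 (JMJD5), better known as a hydroxylase, had 3.27 ± 0.390 CPM in MANIO and 3.21 ± 0.578 CPM in DMSO (0.03, edgeR adjusted p = 0.890).

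**Figure D5:**
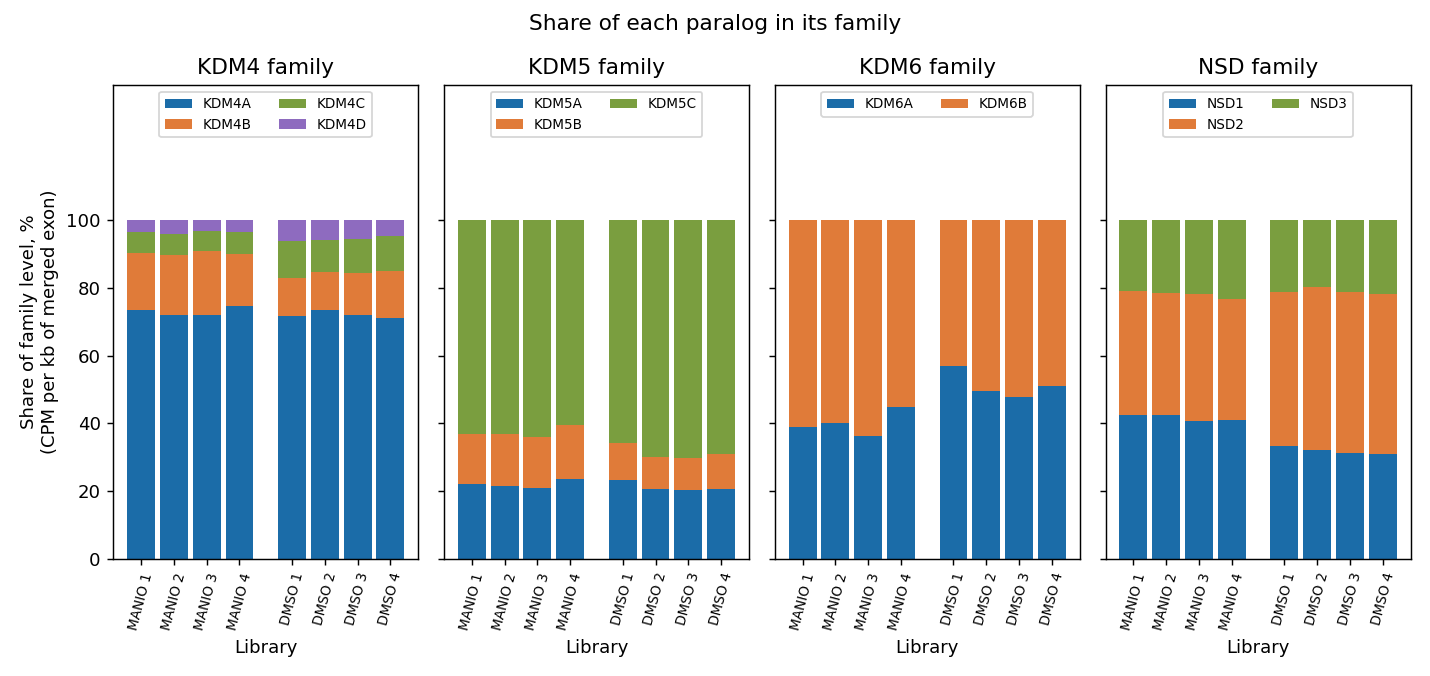
Share of each paralog in the summed level of its family (CPM per kilobase of merged exon) in each library, MANIO libraries left of DMSO libraries. KDM4B, KDM5B and KDM6B take larger shares in the MANIO libraries, and NSD1 takes the larger share where NSD2 takes the smaller.

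The genes of the same chemistry that the symbol rule does not take were examined beside the members. Of 14 other tested lysine methyltransferase genes, 7 fell, where the share over all genes was 26.8%. Another 3 rose, namely ASH1L, SMYD4 and PRDM2 (21.4%, against 27.8% of all genes). The median log2 fold change of these 14 genes was -0.12. SMYD3, a mostly cytoplasmic lysine methyltransferase whose gene spans 758 kb, had 7.98 ± 0.386 CPM in MANIO and 22.4 ± 0.886 CPM in DMSO (-1.49, edgeR adjusted p = 3.2e-10). SUV39H1, the H3K9 methyltransferase of constitutive heterochromatin, had 17.6 ± 2.18 CPM in MANIO and 27.5 ± 2.18 CPM in DMSO (-0.64, edgeR adjusted p = 1.8e-05), with 20.3% of its exonic bases in another gene. SMYD5 had 44.4 ± 2.30 CPM in MANIO and 55.4 ± 3.96 CPM in DMSO (-0.32, edgeR adjusted p = 5.6e-04). Of 7 other JmjC genes, 3 rose (HR, PHF8 and JMJD1C) and 1 fell (PHF2), with a median of -0.03. These shares are 42.9% and 14.3%, against 27.8% and 26.8% of all genes. HR, the hairless H3K9 demethylase and nuclear receptor corepressor, had 42.7 ± 2.70 CPM in MANIO and 24.5 ± 2.21 CPM in DMSO (0.80, edgeR adjusted p = 3.4e-07). PHF8, a demethylase of H4K20 and H3K9, had 54.2 ± 1.53 CPM in MANIO and 46.4 ± 2.74 CPM in DMSO (0.22, edgeR adjusted p = 0.00412). PHF2, its H3K9 relative, had 48.0 ± 1.06 CPM in MANIO and 58.5 ± 2.77 CPM in DMSO (-0.29, edgeR adjusted p = 4.0e-04).

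Of 12 genes that supply the methyl donor or handle 2-oxoglutarate, 5 fell (41.7%, against 26.8% of all genes), among them IDH1, AHCYL1 and MAT2A. D2HGDH and IDH3A rose (16.7%, against 27.8% of all genes) and 5 did not pass, with a median of -0.10. IDH1, the cytosolic isocitrate dehydrogenase that makes 2-oxoglutarate, had 98.2 ± 4.08 CPM in MANIO and 163 ± 13.5 CPM in DMSO (-0.73, edgeR adjusted p = 1.6e-07). AHCYL1, a relative of the S-adenosylhomocysteine hydrolase, had 138 ± 5.12 CPM in MANIO and 168 ± 8.28 CPM in DMSO (-0.28, edgeR adjusted p = 3.3e-04). D2HGDH, which oxidises 2-hydroxyglutarate, had 35.7 ± 2.67 CPM in MANIO and 28.9 ± 2.78 CPM in DMSO (0.31, edgeR adjusted p = 0.00311). Over the 5 lists of related genes together, 13 of 57 tested genes rose (22.8%, against 27.8% of all genes) and 25 fell (43.9%, against 26.8%), with a median of -0.13. The genes named with their direction to spell out a count of 5 or fewer were chosen after their values were seen.

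Many members are long genes. The 15 members in the fifth of tested genes with the longest spans (over 86.1 kb) included 8 that rose and 3 that fell, with a median log2 fold change of 0.14, while over all genes of this class 20.1% rose and 43.0% fell, with a median of -0.12. The 7 members in the fifth with the highest GC content (over 58.3%) included 6 that rose and SETD1A, which did not pass, with a median of 0.36, while over all genes of this class 35.4% rose and 17.5% fell, with a median of 0.10. The 23 members in the fifth with the longest exonic length (over 7755 bases) included 13 that rose (56.5%) and 4 that fell (17.4%). Over all 3135 genes of this class 1004 rose and 897 fell (28.6%). The median log2 fold change was 0.17 over these members and 0.02 over all genes of this class. Across the 39 members Spearman's rho between log2 fold change and span was -0.0071, and across all tested genes -0.15. For GC content these values were 0.27 and 0.15, and for exonic length 0.318 and 0.000529. These are correlations across genes of the same libraries, which are not independent replicates. The part of exonic length in the member differences was not tested.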

How the data were processed

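The deposited table holds unscaled read counts per gene for 8 libraries, 4 with MANIO and 4 with DMSO, as its whole-number values show. Per the labels' protocols, total RNA went through Illumina's TruSeq RNA kit, version 2, which does not mark strand, so a read from either strand of an overlap cannot be assigned. Per the submitters' processing notes, the build was GRCh38 and the tools included HTSeq, STAR 2.5.3a, FastQC 1.3 and DESeq2. Their settings, the annotation release and the handling of multiply mapped reads were not given in the sources used here. Total counts were 27945196 to 32509020 per library, and a chi-square test between libraries of a group gave 3.60 to 24.4 for each degree of freedom, more than sampling noise.

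Counts were analysed in R 4.3.3. Genes kept by edgeR's filterByExpr were TMM-scaled and tested with edgeR 4.0.16 by its quasi-likelihood test (robust, group alone), with Benjamini-Hochberg adjustment over all 15712 genes and calls at an adjusted p under 0.05. Log2 fold changes are MANIO over DMSO, the standard error (SE) was derived from the F value, and levels are CPM (counts per 1000000) after TMM scaling, with the SD over 4 libraries. Positions, spans, lengths and overlaps came from GENCODE 29 on GRCh38, which holds all 41 members, and promoter windows from RefSeq on GRCh38.p14. Alternatives were DESeq2 1.42.0, other scalings, no filter, a 1.2-fold limit, a replicate block and each library left out, and 2 more were added after seeing the data. The members, lists and rules were chosen with earlier results of these data known. Every tested member is named, library values are given for calls with an absolute log2 fold change of at least 0.4 and for the member closest to no change in each direction (KDM1A was added after its values were seen), and each list of related genes gives its 3 members of smallest p. Some genes of these lists are not reported here.

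The test was tested on simulated data for the same comparison, with 50 genes changed at each fold among 15552. Recovery was 36% for a 1.2-fold change, 86% for 1.5-fold, 96% for 2-fold and 100% for 4-fold. False calls were 15 of 174. Few genes were changed in the simulation, whereas 54.6% of tested genes were called in the real data. Library deviations along GC content were not simulated. The rates of recovery and false calls may therefore differ in the real data.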

Additional observations from a re-analysis of the deposited data

Results flagged for a closer look

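In 7 of 78 groups of 4 libraries, 1 library lay far from the other 3 by Dixon's test, where chance gives about 1 in 20. In MANIO these were KMT2D, lowest in replicate 4 at 180.5 CPM, KDM4B, lowest in replicate 4 at 64.6 CPM, and KMT5A, highest in replicate 3 at 57.2 CPM. In DMSO they were KMT5C, lowest in replicate 1 at 11.9 CPM, KDM5C, lowest in replicate 1 at 116 CPM, SETD7, highest in replicate 1 at 194.9 CPM, and SETD3, lowest in replicate 2 at 67.3 CPM.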

How the results depend on the processing

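With a 1.2-fold limit (glmTreat), the members called fell to 5 higher and 1 lower (17 and 7 without the limit), all genes to 2302 higher and 1830 lower (4366 and 4208), and the lists of related genes to 2 higher and 6 lower (13 and 25). The limit itself asks for larger changes. With 1 library left out in turn, the counts ran from 13 to 17 members higher and 5 to 7 lower, 3962 to 4389 genes higher and 3829 to 4233 lower, and 9 to 13 related genes higher and 22 to 28 lower. Of the 24 member calls, 6 were kept in all 16 alternatives (KDM4A, KDM4B, KDM5B, KDM6B, KDM7A and NSD2) and 16 in the 15 alternatives other than the 1.2-fold limit. The other 8 were KMT2E (lost without MANIO 2), KMT5B (without DMSO 2 or 4), KMT5C (without MANIO 1 or 3 or DMSO 1, 2 or 3), SETD3 (without MANIO 1, 2 or 3 or DMSO 1, 3 or 4), SETD4 (without MANIO 1, 2 or 4 or DMSO 1, 2 or 3), KDM2A (without MANIO 1 or 2 or DMSO 1, 3 or 4), KDM3A (without MANIO 2 or 3 or DMSO 1 or 4) and KDM5A (without MANIO 1 or DMSO 2, 3 or 4). No filter also ended KMT5B, SETD3, SETD4, KDM2A and KDM5A, upper-quartile factors and DESeq2 each KMT5C and SETD4, removal of the GC trend KMT5C and SETD3, and leaving out MANIO 4 and DMSO 1 together SETD4; the cause was not tested.

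Whether the replicate numbers pair the samples was not settled. Deviations of same-numbered samples correlated at 0.0385, 0.163, 0.118 and 0.0958. Those of different-numbered samples ran from -0.314 (MANIO 3 and DMSO 1) to 0.290 (MANIO 3 and DMSO 4), with 0.250 for MANIO 1 and DMSO 2. A replicate block gave 16 members higher and 6 lower, 4491 and 4354 genes, and 12 and 26 related genes, and lost the calls of KMT5C and SETD3 only among members.

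Members without a call passed the test in 8 cases: KDM6A in 3, KDM4D in 2, and SETD1A, SETD2 and KDM2B in 1 each. Direction turned only in members that were not called. With the GC trend removed, added after seeing the data together with the fit without MANIO 4 and DMSO 1, log2 fold changes were 0.037 for NSD3, 0.023 for SETDB2, 0.017 for SETD9 and -0.023 for KDM8. SETD6 had -0.00081 with DESeq2's size factors, -0.0099 with upper-quartile factors, -0.013 with no filter and -0.0067 with DESeq2. KDM3B had -0.0039 with upper-quartile factors, -0.0072 with no filter and -0.00077 with DESeq2. With 1 library left out, or MANIO 4 and DMSO 1 together, the range was -0.073 to 0.029 for KMT5A, -0.0020 to 0.049 for SETD5, -0.031 to 0.026 for SETD6, -0.098 to 0.0091 for SETD9, -0.015 to 0.031 for KDM3B, -0.046 to 0.028 for KDM5C and -0.062 to 0.13 for KDM8. In shares per longest transcript, the MANIO minus DMSO difference was -0.62 points for KDM4A and -0.0068 points for KDM5A. Depth limits KDM8 and KDM4D most, at 74 to 121 counts per library.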
